A study of Mus musculus with 22 samples.

Results

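The comparison set tumour-infiltrating granulocytic myeloid-derived suppressor cells (G-MDSCs) from mice treated with entinostat, anti-PD-1 and anti-CTLA-4 together against the same cells from vehicle-treated mice. Samples were chosen by the names in the table: 4 columns of the triple combination and 6 columns of vehicle, 10 of the 22 samples in the series. Expression was read on a NanoString mouse myeloid panel of 655 endogenous genes. Of these, 420 had a mean of log2 values above the background limit in at least 1 of the 5 treatment groups and were tested, and 235 did not.

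G-MDSCs are immature neutrophil-like cells that collect in tumours and restrain T cells through arginase, reactive oxygen species, prostaglandins and checkpoint ligands. They carry neutrophil genes such as the calprotectin subunits S100a8 and S100a9, the G-CSF receptor Csf3r and the chemokine receptor Cxcr2. Entinostat is an inhibitor of class I histone deacetylases. Antibodies to PD-1 and CTLA-4 block inhibitory receptors that are found mainly on T cells.

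All animals were female FVB-Neu-N mice, 7 to 8 weeks old, with 50000 NT2.5 mammary tumour cells placed in the mammary fat pad. Treatment began 3 days after implantation and ran for 3 weeks. The triple combination consisted of oral entinostat at 5 mg/kg daily in 0.5% methylcellulose with anti-PD-1 and anti-CTLA-4 at 100 µg per mouse each, 2 times a week. Vehicle mice received methylcellulose with isotype antibodies per the treatment protocol, and the sample descriptions name PBS and methylcellulose. The remaining groups received entinostat alone, entinostat plus anti-PD-1 or entinostat plus anti-CTLA-4, 4 samples each. None of the 5 groups received anti-PD-1 or anti-CTLA-4 without entinostat. Per the protocol, some experiments added an anti-HER2 antibody and others did not, and which kind gave these samples is not stated. The labels do not tie samples to separate animals, so the p-values below measure only the spread between samples. The model is a single transplanted tumour line.

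Values are deposited normalized barcode counts. The background limit was 29.3 normalized counts, the mean plus 2 SD of the negative control probes on the log2 scale. Barcode counts recovered for the genes summed to 23296 to 391298 in the triple combination and 127353 to 247892 in vehicle. Triple combination samples are called a, b, 2 and 4, since 2 columns share the name with number 1. Sample 2 was the shallowest of the 22: 1 barcode count was worth 9.78 normalized counts there, against 0.529 to 2.07 in the other triple combination samples. Negative controls averaged 28.1 normalized counts in sample 2, 12.9 in 4, 11.6 in b and 3.31 in a, against 4.66 to 7.04 in vehicle, so 3 of the 4 were above every vehicle sample. The negative control mean did not separate the groups after adjustment over the 6 sample-level measures compared (two-sided exact permutation test, p = 0.0667, adjusted p = 0.40, n = 4 and 6). Vehicle samples 2, 1 and 3 lay farthest from the vehicle mean, with a median deviation over the tested genes of 0.36, -0.34 and 0.23 on the log2 scale, beside 0.54 and 0.49 in triple combination samples 2 and 4, 0.14 in b and -0.03 in a. Vehicle sample 2 had the lowest mean correlation with the other vehicle samples, 0.890 against 0.925 to 0.951. The column headers carry 2 run identifiers, called cartridges here. Cartridge 1 held triple combination sample a with vehicle samples 1, 2 and 4, and cartridge 2 held triple combination samples b, 2 and 4 with vehicle samples 3, V1 and V2. In the order of the columns, sample a stands between vehicle samples 2 and 4, and vehicle sample 3 follows triple combination sample 4. Sample a had a mean correlation of 0.954 with the vehicle samples and 0.922 with the other triple combination samples, and vehicle sample 3 one of 0.925 and 0.924. Triple combination sample b had 0.948 and 0.942, and vehicle sample 2 had 0.890 and 0.941, so samples a and 3 were not alone in this. Triple combination samples 2 and 4 correlated more with their own group, at 0.911 and 0.939, than with vehicle, at 0.869 and 0.906. The labels were used as deposited, and whether those of triple combination sample a and vehicle sample 3 are crossed was not tested. The transcript of Ly6g, the antigen used to select the cells, was at background in all 10 samples, at 5.07 to 12.4 normalized counts in the triple combination and 3.43 to 8.23 (median 5.64) in vehicle. The cell label was therefore checked on the 19 measured neutrophil genes. Ly6g, Mmp8, Elane, Mpo and Ctsg were under the background limit in the log2 mean of every group, and 14 were above it in at least 1 group, among them S100a9 at 8271 to 11476 and 3347 to 14573 (median 4025) normalized counts. Camp, counted among the 14, passed the limit only with entinostat alone and lay under it in all 10 samples compared here. Epithelial Cdh1, at 841 to 1162 and 783 to 1253, was also detected in every sample. In a bulk isolate, fewer cells of a type and less RNA per cell cannot be told apart.

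No gene passed the test. With limma on log2(normalized count + 1), 0 of 420 genes (0%) had an adjusted p under 0.05 between the triple combination and vehicle, and the lowest adjusted p was 0.281. Before adjustment 59 genes (14%) had p under 0.05, of which 50 (11.9%) were higher in the triple combination and 9 (2.14%) lower. On the recovered counts, edgeR with lane factors called 0 genes and had 42 under 0.05 before adjustment, edgeR with TMM factors 0 and 32, and DESeq2 0 and 42. Of the 29 alternative settings, 27 also gave 0. A fit with estimated sample weights, which gave vehicle sample 2 a weight of 0.177 and triple combination sample 2 one of 0.306, called 126 genes, 115 higher and 11 lower. With triple combination sample a and vehicle sample 3 both left out, 0 genes passed and 120 had an unadjusted p under 0.05. The precision was limited: the median standard error was 0.27 log2 units and the median 95% interval reached 0.57 to either side. Intervals were narrower for some genes and wider for others, and they are not adjusted for the number of genes. That width is therefore no detection limit, and a gene that did not pass cannot be taken as unchanged.

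The balance of the panel leaned towards higher values in the triple combination. The fold change was above 0 for 315 genes (75%), with a median over all tested genes of 0.30 on the log2 scale. All 4 triple combination samples lay above the vehicle mean for 108 genes (25.7%) and below it for 32 (7.62%). That lean depended on scaling. The share above 0 was 53.8% when each sample was centred on its median gene, 44.0% after quantile normalization, 42.9% with TMM factors and 45.5% with DESeq2 size factors, and the median fold change was then 0.064, -0.071, -0.064 and -0.036. It was 62.4% after subtraction of each sample's negative control mean. Without triple combination sample 2 the median fold change was 0.16. Gene groups below are therefore given with the median of all genes in view, first on the deposited scale and then after median centring.

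**Figure D1:**
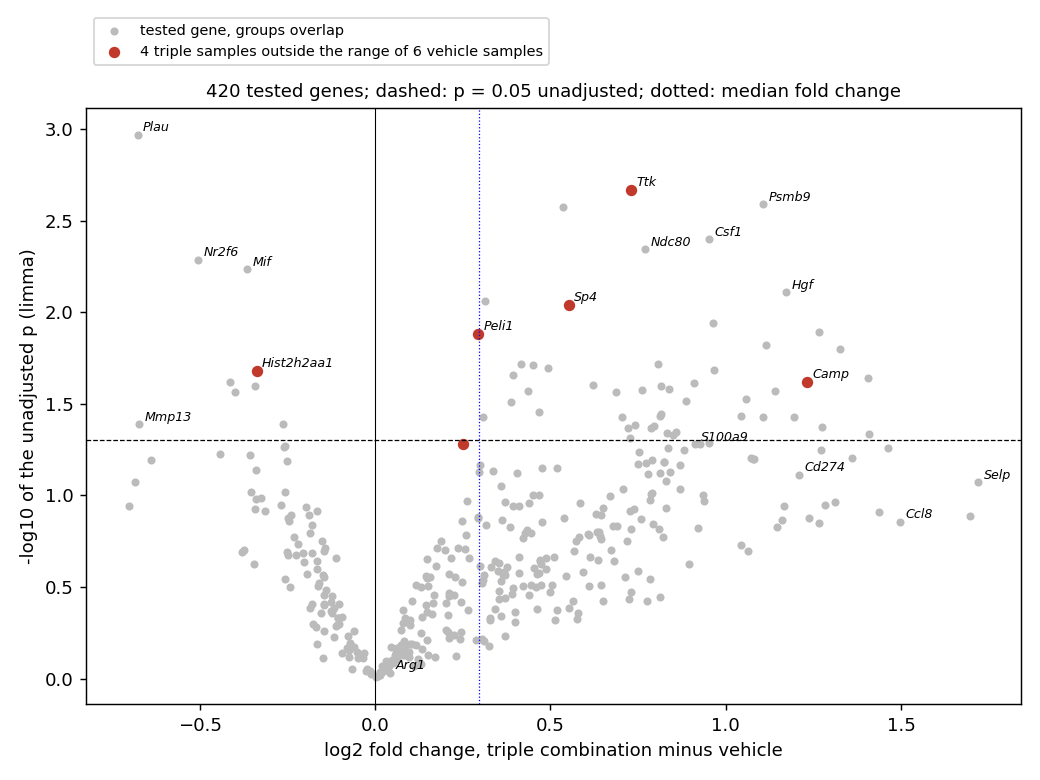
Log2 fold change of the triple combination (n = 4) over vehicle (n = 6) on the horizontal axis and -log10 of the unadjusted limma p on the vertical axis for the 420 tested genes; the dotted line is the median fold change of 0.30 and the dashed line the unadjusted threshold of 0.05. Red points are the 6 genes whose groups do not overlap, and no gene passed after adjustment.

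A total of 6 genes, 1.43% of those tested, had triple combination samples entirely outside the vehicle range: 5 above (1.19%) and 1 below (0.238%). Ttk, a spindle checkpoint kinase, read 44.9, 57.5, 68.4 and 47.5 normalized counts in triple combination samples a, b, 2 and 4, and vehicle had a lowest value of 24.3, a median of 34.0 and a highest value of 39.6. Every triple combination sample was above every vehicle sample, with a log2 fold change of 0.73 ± 0.21 (SE) and an adjusted p of 0.281. Camp, which encodes the granule peptide cathelicidin, read 12.2, 21.98, 19.6 and 24.8 against a vehicle range of 4.57 to 10.6 (median 7.61). Its difference was 1.23 ± 0.50, and all 10 values lay under the background limit. Camp was tested only through entinostat alone, where it averaged 33.4 normalized counts. Its value in sample 2 was under the negative control mean of that sample, 28.1. Peli1, an E3 ubiquitin ligase of Toll-like receptor signalling, read 308, 313, 284 and 308 against 202 to 275 (median 251), a narrow separation of 0.29 ± 0.11. Sp4, a transcription factor of the Sp family, read 47.6, 49.0, 58.7 and 41.3 against 20.4 to 41.1 (median 34.8). Its separation was narrower than 1 barcode count of sample 4, which was worth 2.07 normalized counts: sample 4 read 41.3 and the highest vehicle sample 41.1. In sample 2, where 1 barcode count was worth 9.78 normalized counts, the Ttk and Sp4 values rested on few counts. The highest negative control probe in that sample read 7 counts. The gene below the vehicle range was Hist2h2aa1, a replication-type histone H2A gene, at 1482, 1469, 1584 and 1054 against 1612 to 1957 (median 1682). Sample 4 was the lowest of its 4 values, and the log2 fold change was -0.34 ± 0.13 with a 95% interval of -0.62 to -0.06. This histone gene has near-identical copies, and reads of the probe may come from more than 1 of them. Only some of the 6 kept the separation under other scalings: Ttk and Hist2h2aa1 kept it after background subtraction, and none of the 6 after median centring. With triple combination sample a and vehicle sample 3 both left out, 29 genes did not overlap. After quantile normalization the fold changes of Peli1 and Sp4 were below 0, at -0.020 and -0.00687.

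Among genes with a higher mean, those with the smallest unadjusted p values included Ttk, Psmb9, Csf1, Ndc80, Hgf, Nfyc, Sp4, Crabp2 and Slc16a6, none of which passed. Psmb9, an inducible subunit of the immunoproteasome, read 37.5, 52.4, 147 and 78.5 normalized counts in samples a, b, 2 and 4 against 18.6 to 48.2 (median 34.6) in vehicle. Sample 2 was the highest and sample a lay inside the vehicle range, with a log2 fold change of 1.11 ± 0.32 (adjusted p = 0.281). Csf1, the macrophage colony-stimulating factor, read 412, 492, 479 and 597 against 149.6 to 499.5 (median 233). Vehicle sample 2 reached 499.5 there and the other 5 vehicle samples stayed at or below 297, under all 4 triple combination samples, and the log2 fold change was 0.95 ± 0.29 (adjusted p = 0.307). Ndc80, a kinetochore component, read 27.0, 35.5, 48.9 and 57.9 against 17.7 to 30.6 (median 24.6), with 3 of 4 triple combination samples above vehicle. Hgf, hepatocyte growth factor, had a log2 fold change of 1.17 ± 0.39, but only sample 2 was above the background limit. Nfyc, a subunit of the CCAAT-binding factor NF-Y, differed by 0.31 ± 0.11, close to the median of all genes. Crabp2, a retinoic acid carrier, read 16.9, 28.7, 58.7 and 53.7 against 8.58 to 27.4 (median 19.4): samples 2 and 4 were high and sample a lay below the vehicle median. Slc16a6, a monocarboxylate transporter family member, read 43.9, 74.4, 156 and 130.2 against 17.7 to 71.7 (median 39.9) with the same 2 samples high, and differed by 1.27 ± 0.46. The Ndc80 and Crabp2 values in sample 2 rested on few barcode counts, at 9.78 normalized counts for each, and the highest negative control probe there read 7 counts. Crabp2 was tested only through the triple combination, the group where it was high, with an average of 39.5 normalized counts. Its mean in every other group, all its vehicle values and those of samples a and b lay under the background limit.

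Lower means were led by Plau, which encodes the urokinase plasminogen activator. It read 377, 414, 274 and 296 normalized counts in samples a, b, 2 and 4, and vehicle had a lowest value of 405, a median of 513 and a highest value of 749. Samples a, 2 and 4 were below every vehicle sample, and sample b was above vehicle sample 1 only. The log2 fold change was -0.68 ± 0.18, 95% interval -1.05 to -0.31, and its adjusted p of 0.281 was the lowest of the panel together with those of the other genes tied at it. Mif, a cytokine that acts on macrophages, read 1177, 1302, 1075 and 990.0 against 1165 to 1696 (median 1507) and differed by -0.37 ± 0.12. Nr2f6, an orphan nuclear receptor, read 146, 123, 88.0 and 109.5 against 131 to 203 (median 166); sample a lay among the vehicle samples, and the difference was -0.51 ± 0.16. The remaining genes of this direction were Tgfa (-0.41 ± 0.17), a ligand of the EGF receptor; Ndufa7 (-0.34 ± 0.14), a subunit of respiratory complex I; Spry2 (-0.40 ± 0.17), a feedback inhibitor of receptor tyrosine kinases; Eef1a1 (-0.26 ± 0.12), a translation elongation factor; the collagenase Mmp13 (-0.67 ± 0.31); and the LIM protein Crip1 (-0.26 ± 0.13). The adjusted p of these lay between 0.32 and 0.338. Eef1a1 was carried by sample 2, at 14538 normalized counts against 20258 to 21305 in the other triple combination samples, and without that sample the difference was -0.13.

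**Figure D2:**
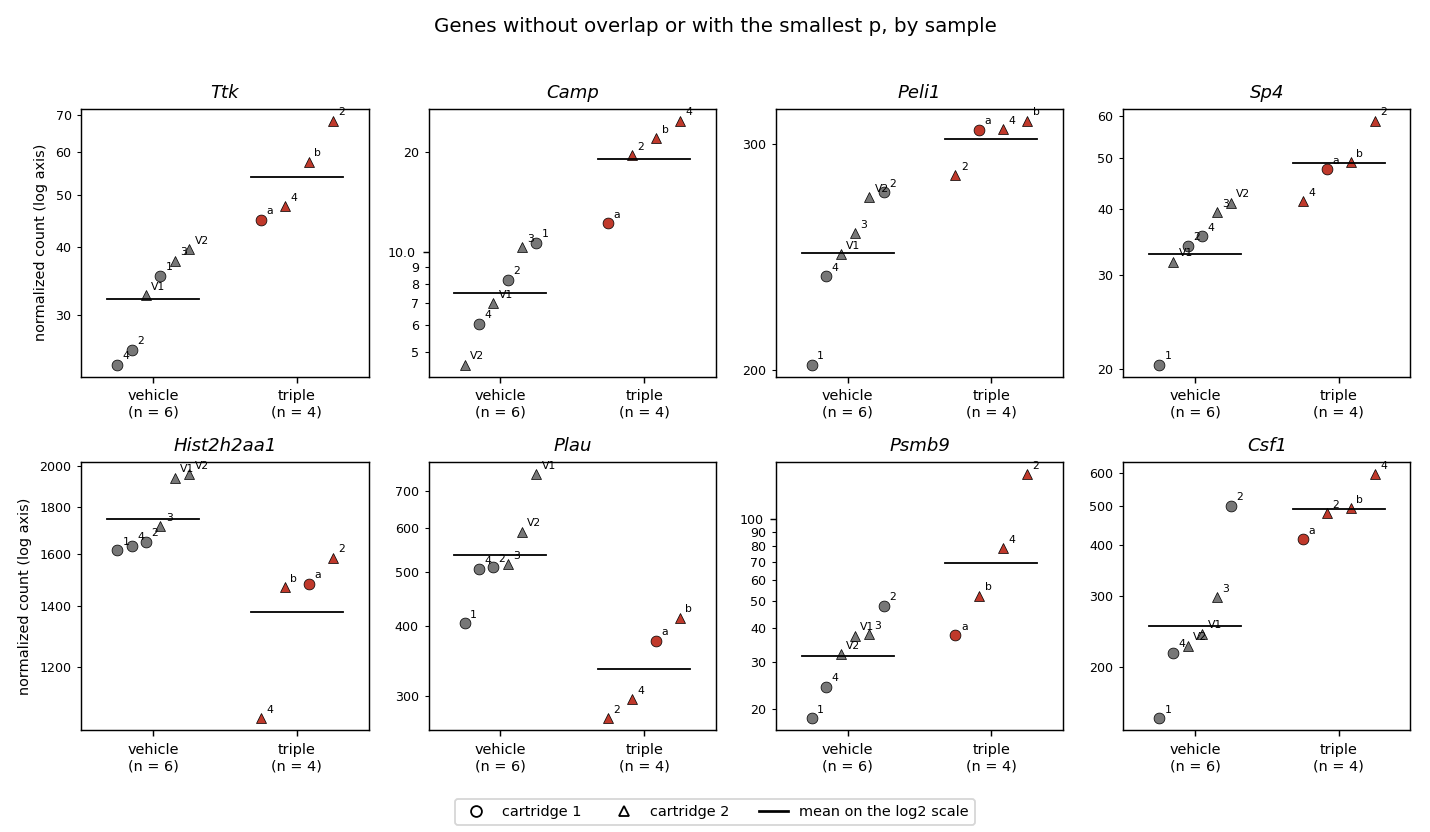
Normalized counts on a log axis in each vehicle (grey, n = 6) and triple combination (red, n = 4) sample for 8 genes; circles are cartridge 1, triangles cartridge 2, and bars the group mean on the log2 scale. Ttk, Camp, Peli1, Sp4 and Hist2h2aa1 do not overlap between groups, while Plau, Psmb9 and Csf1 share part of their range.

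Neutrophil genes had higher means as a group. Of 19 measured genes of neutrophil granules and maturation, 14 were tested. All 14 had a fold change above 0, where 75% of all genes did, with a median of 0.78 against 0.30 over all genes. Of the 14, 4 were higher with an unadjusted p under 0.05, where 11.9% of all genes were, and none passed. Camp, whose values all lay under the background limit in these samples, was among these 4. After median centring the list median was 0.55 and 12 of 14 stayed above 0, against 53.8% of all genes. S100a8 and S100a9, which together form calprotectin, behaved alike. S100a9 read 8842, 11476, 8271 and 9362 normalized counts in samples a, b, 2 and 4, and vehicle had a lowest value of 3347, a median of 4025 and a highest value of 14573. All triple combination samples were above 5 of the 6 vehicle samples, and vehicle sample 2 was above all of them; the difference was 0.91 ± 0.44, with an interval of -0.01 to 1.84. S100a8 read 5097, 6192, 5113 and 4561 against 1641 to 7803 (median 2078), again with vehicle sample 2 highest, and differed by 0.95 ± 0.46 (adjusted p = 0.338).

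Receptors of neutrophil release and recruitment also had higher means in the triple combination. Csf3r, the receptor of G-CSF, read 324, 458, 616 and 564 normalized counts against 151 to 570.1 (median 221) in vehicle, a difference of 0.91 ± 0.37 (adjusted p = 0.32). Cxcr2, which directs neutrophils towards CXC chemokines, read 258, 291, 420.4 and 347 against 126 to 409 (median 157), and differed by 0.89 ± 0.38. In both genes 5 vehicle samples were lower than 3 or more of the triple combination samples and vehicle sample 2 was inside their range. All 16 tested chemokine receptor and adhesion genes had a fold change above 0, where 75% of all genes did. Their median was 0.71, and 0.48 after median centring. Of the 16, 3 were higher with an unadjusted p under 0.05, where 11.9% of all genes were. Cxcr4, which holds neutrophils in the marrow, differed by 0.82 ± 0.36, and Ccr1, a receptor of inflammatory CC chemokines, by 0.79 ± 0.40.

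Removing vehicle sample 2 raised these values. The median of the neutrophil genes was then 1.05 and 134 genes of the panel had an unadjusted p under 0.05, still with 0 called. Without triple combination sample 2 the same median was 0.71 and 21 genes of the panel had an unadjusted p under 0.05. Pan-leukocyte transcripts moved with the neutrophil genes. The 8 tested pan-leukocyte genes, of which Itgb2 is also in the neutrophil list, all had a fold change above 0, where 75% of all genes did. Their median was 0.70 (0.47 after median centring). Their summed level ran from 2342 to 3894 normalized counts in the triple combination against 1239 to 4693 (median 1607) in vehicle. Ptprc, the common leukocyte antigen CD45, read 446, 643, 635 and 657 against 187 to 739 (median 279.6) and differed by 0.81 ± 0.36. Was, a regulator of leukocyte actin, differed by 0.82 ± 0.34, the selectin ligand Selplg by 0.77 ± 0.40 and the signalling adaptor Vav1 by 0.67 ± 0.39. The part of this leukocyte signal in the neutrophil result was not tested.

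**Figure D3:**
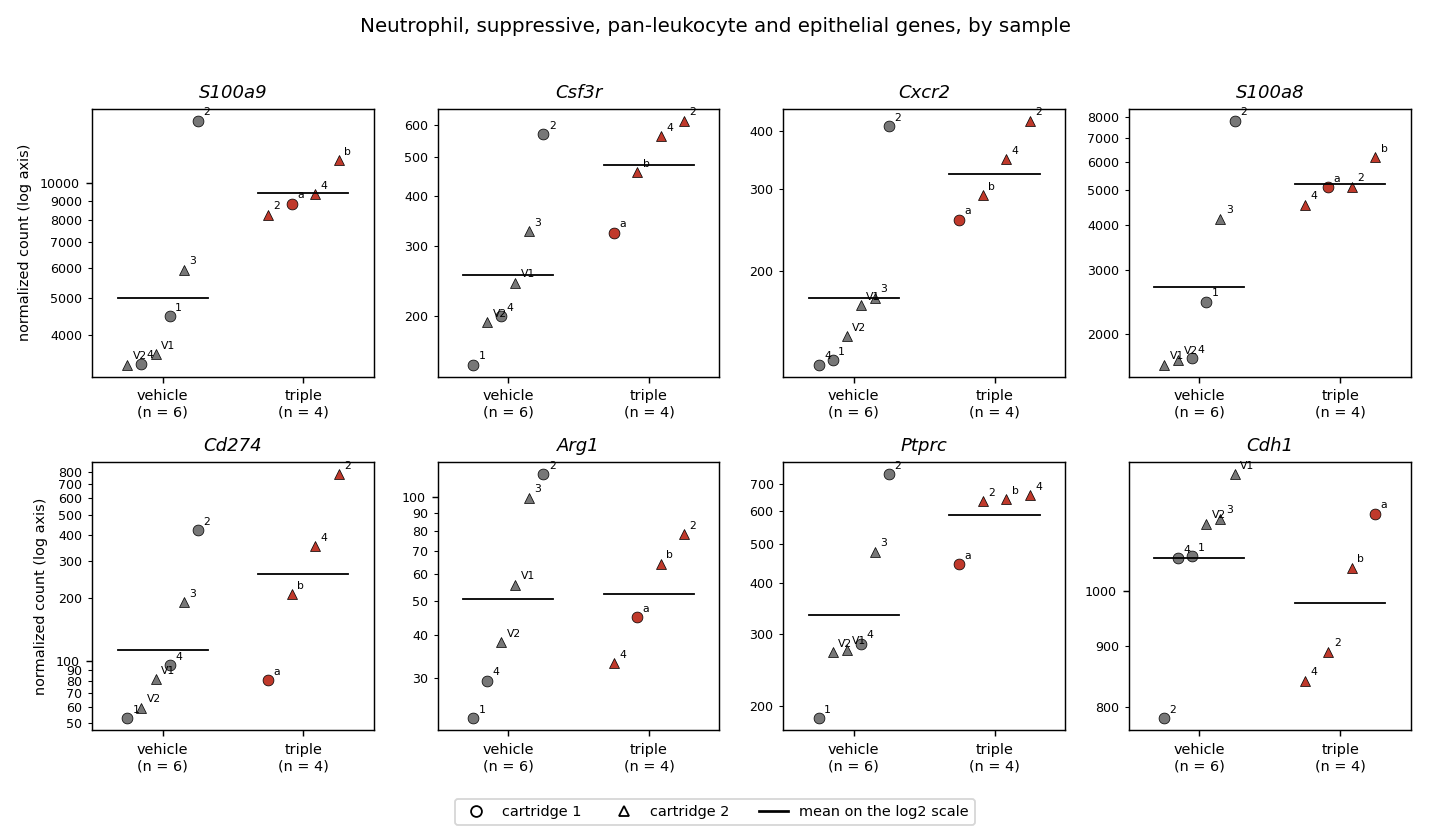
Normalized counts on a log axis in each vehicle (grey, n = 6) and triple combination (red, n = 4) sample for neutrophil (S100a9, Csf3r, Cxcr2, S100a8), suppressive (Cd274, Arg1), leukocyte (Ptprc) and epithelial (Cdh1) genes; bars are means on the log2 scale, circles cartridge 1 and triangles cartridge 2. Vehicle sample 2 is the highest vehicle sample for the first 7 genes and the lowest for Cdh1.

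Effector genes of suppression gave mixed values. All 15 tested members had a fold change above 0 on the deposited scale, where 75% of all genes did, with a median of 0.44. After median centring 9 of 15 did, against 53.8% of all genes. Of the 15, 1 was higher with an unadjusted p under 0.05, where 11.9% of all genes were. Arg1, the arginase through which myeloid cells deplete arginine, read 44.9, 64.2, 78.2 and 33.1 normalized counts in samples a, b, 2 and 4, and vehicle had a lowest value of 23.02, a median of 47.0 and a highest value of 116. The triple combination lay wholly inside the vehicle range, with a difference of 0.04 ± 0.49 whose interval of -0.98 to 1.07 includes changes of either sign. Its sign turned in 5 of the 10 repeats that left out 1 sample. Cd274, the checkpoint ligand PD-L1, read 80.4, 208, 782 and 353 against 53.1 to 423 (median 88.4). It spanned a wide range, from sample a among the lowest of all 10 to sample 2 as the highest, and the difference of 1.21 ± 0.65 (adjusted p = 0.34) was 0.68 without sample 2. Ptgs2, the inducible cyclooxygenase that makes prostaglandin precursors, read 1626, 2036, 870.1 and 1488 against 592 to 2732 (median 826), a difference of 0.44 ± 0.42. Cybb, the catalytic subunit of the phagocyte oxidase, read 29.1, 71.0, 127 and 149 against 16.8 to 165 (median 38.3) and differed by 0.71 ± 0.64.

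Il4ra, the receptor chain shared by interleukins 4 and 13, had the smallest p of the list; it read 258, 338, 557 and 302 against 204 to 346 (median 236), where sample 2 alone was above vehicle, and differed by 0.47 ± 0.21, or by 0.24 without it. Olr1, the scavenger receptor LOX-1 used as a marker of human G-MDSCs, read 48.1, 72.7, 127 and 107 against 28.3 to 97.6 (median 36.6) and differed by 0.93 ± 0.45. Stat3, Tgfb1 and Vegfa were near 0, at 0.05 ± 0.11, 0.10 ± 0.22 and 0.17 ± 0.17, and each was below 0 after median centring and with TMM or DESeq2 factors. Nos2 and Il10 were under the background limit in the log2 mean of every group and were not tested. Nos2 read 12.2, 15.2, 78.2 and 43.4 in the triple combination against 11.3 to 41.1 (median 15.2) in vehicle, and Il10 read 7.40, 5.07, 39.1 and 12.4 against 4.66 to 21.2 (median 9.76); in both, sample 2 was the highest, where 1 barcode count was worth 9.78 normalized counts.

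Fc receptors and ITAM signalling genes, through which phagocytes respond to bound antibody, had a median fold change of 0.67 over 9 tested members. All 9 were above 0, where 75% of all genes were. After median centring the median was 0.44 with all 9 above 0, against 53.8% of all genes. Of the 9, 2 were higher with an unadjusted p under 0.05, where 11.9% of all genes were. Fcgr4, the activating receptor for IgG2, read 47.6, 93.0, 176 and 88.9 normalized counts against 31.1 to 107 (median 39.9), with sample 2 highest and sample a inside the vehicle range, and differed by 0.97 ± 0.38. Btk and Syk, kinases downstream of these receptors, differed by 1.19 ± 0.53 and 0.83 ± 0.42, the former with 2 of 4 triple combination samples under the background limit.

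Interferon response genes were represented by 6 tested members, which all had a fold change above 0, where 75% of all genes did. Their median was 0.53 (0.30 after median centring). Of the 6, 3 were higher with an unadjusted p under 0.05, where 11.9% of all genes were. Ifngr1, the ligand-binding chain of the interferon gamma receptor, read 217, 267, 381 and 353 against 149 to 315 (median 204); samples 2 and 4 were above vehicle, and the difference was 0.49 ± 0.19. Isg15, a ubiquitin-like protein induced by type I interferon, read 59.8, 103, 127 and 66.1 against 35.7 to 71.7 (median 52.2) and differed by 0.69 ± 0.29 (adjusted p = 0.32). Irf1, an interferon-induced transcription factor, read 383, 666, 753 and 919.7 against 289.5 to 665 (median 444) and differed by 0.52 ± 0.27. In cartridge 1, where sample a was the only triple combination sample, the median of the list was -0.18, and 2 of 6 genes were above 0.

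The upstream sequences of Isg15 and Irf1, chosen after their values were seen, are shown because they carry the letters that interferon-activated factors are known to read. Each is the 250 bases before the RefSeq transcription start in GRCm38.p6, printed 5′ to 3′ on the gene's own strand, at chr4:156200819-156201068 (minus strand) for Isg15 and chr11:53769764-53770013 (plus strand) for Irf1. Capitals mark, in Isg15, a pair of GAAA repeats set 2 bases apart, the core of the interferon-stimulated response element, and in Irf1 a match to TTCNNNGAA, the palindrome of the gamma-activated site. Both strands were searched.
Isg15: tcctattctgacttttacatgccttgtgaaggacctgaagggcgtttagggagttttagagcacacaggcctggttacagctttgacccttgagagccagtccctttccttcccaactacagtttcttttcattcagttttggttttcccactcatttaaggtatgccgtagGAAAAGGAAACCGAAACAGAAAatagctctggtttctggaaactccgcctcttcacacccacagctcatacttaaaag
Irf1: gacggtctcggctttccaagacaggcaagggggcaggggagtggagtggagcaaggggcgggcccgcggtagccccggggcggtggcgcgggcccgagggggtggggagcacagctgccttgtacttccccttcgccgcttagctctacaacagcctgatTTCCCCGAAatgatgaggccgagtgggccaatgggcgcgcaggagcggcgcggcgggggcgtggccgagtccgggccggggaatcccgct
Isg15 holds 3 overlapping matches, from 78 to 57 bases before the start, and Irf1 holds 1, from 90 to 82 bases before it. Of 32851 mouse promoters of this length in the RefSeq table, 2.98% held the first motif and 7.02% the second. A match describes letters and says nothing of whether a factor was bound in these cells.

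Genes of MHC class I and peptide loading stood near 0, with a median of 0.06 over 7 tested members, 4 above 0, turning to -0.17 after median centring and -0.063 without triple combination sample 2. Psmb9, given above, and Tap1, the peptide transporter subunit encoded beside it, were the higher members: Tap1 read 37.0, 87.9, 117 and 84.7 against 41.6 to 75.2 (median 50.9) and differed by 0.45 ± 0.26. Its partner Tap2 differed by -0.18 ± 0.12 and the chaperone Calr by -0.15 ± 0.11. Class II and co-stimulatory genes were above 0 in all 9 members on the deposited scale and after median centring, against 75% and 53.8% of all genes. Of the 9, 1 was higher with an unadjusted p under 0.05, where 11.9% of all genes were. The list median was 0.35 after median centring and 0.58 on the deposited scale. That median was 0.31 without triple combination sample 4, 0.36 without 2, 0.91 without a, 0.87 without vehicle sample 3 and 0.96 without vehicle sample 2. Icosl, the ligand of the T cell co-stimulator ICOS, read 36.0, 62.6, 88.0 and 118 against 21.2 to 64.7 (median 25.5) and differed by 1.12 ± 0.42. H2-Ab1, a class II chain, read 69.8, 203, 831 and 916 against 44.3 to 784 (median 161), a spread of more than an order of magnitude within each group, and differed by 0.81 ± 0.87. Cd80 differed by 0.47 ± 0.39 and the protease Ctss by 0.61 ± 0.59. In cartridge 1 the median of the class II list was -0.57, with 1 of 9 above 0.

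Inflammatory genes mostly had fold changes above 0, and few had a small p. The 23 tested genes of the NF-kB and TNF list had a median of 0.46 (0.23 after median centring), 21 above 0 where 75% of all genes were. Of the 23, 2 were higher with an unadjusted p under 0.05, where 11.9% of all genes were. The median was 0.76 without vehicle sample 2 and 0.85 without triple combination sample a. Il1b, the cytokine interleukin 1 beta, read 6369.8, 9785, 7157 and 7711 normalized counts in samples a, b, 2 and 4, and vehicle had a lowest value of 2369, a median of 3754 and a highest value of 11618. All triple combination samples were above 5 of 6 vehicle samples and below vehicle sample 2, with a difference of 0.86 ± 0.40 (adjusted p = 0.338). Tnf, tumour necrosis factor, read 365, 977, 1027 and 1178 against 214 to 1182 (median 433); sample a was far below the other 3, and the difference was 0.79 ± 0.45. Tnfaip3, the feedback inhibitor A20, differed by 0.75 ± 0.39. Tnfaip6, a matrix-binding protein induced by TNF, read 15.9, 37.2, 137 and 64.1 against 12.0 to 28.2 (median 15.8) and differed by 1.41 ± 0.57, or by 0.91 without sample 2.

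Interleukin-1 family and inflammasome genes had a median of 0.52 over 6 members (0.28 after median centring), 0.33 without triple combination sample 4, 0.34 without vehicle sample 1 and 0.90 without triple combination sample a. The antagonist Il1rn differed by 0.61 ± 0.48, the inflammasome sensor Nlrp3 by 0.59 ± 0.51 and the interleukin-33 receptor Il1rl1 by 0.44 ± 0.46. Toll-like and NOD receptors with their adaptors had a median of 0.56 over 8 members (0.33 after median centring, 0.37 without triple combination sample 2). All 8 were above 0, where 75% of all genes were. Of the 8, 3 were higher with an unadjusted p under 0.05, where 11.9% of all genes were. Myd88, the adaptor shared by most Toll-like receptors, read 151, 222, 254 and 258 against 84.1 to 243 (median 115) and differed by 0.81 ± 0.32. Tlr4, the receptor of bacterial lipopolysaccharide, differed by 0.76 ± 0.32 and Tlr2, which senses lipoproteins, by 0.64 ± 0.40. Nod2, a cytosolic sensor of peptidoglycan, read 8.46, 15.2, 97.8 and 68.2 against 7.97 to 18.3 (median 11.9): samples 2 and 4 were high and a and b were under the background limit, as was all of vehicle.

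Chemokine genes are given by class. CC chemokines had a median of 1.09 over 8 tested members (0.86 after median centring). All 8 were above 0, where 75% of all genes were. None was higher with an unadjusted p under 0.05, where 11.9% of all genes were. Ccl8, which attracts monocytes, read 105, 144, 909 and 316 normalized counts against 32.9 to 597 (median 67.1), with sample 2 and vehicle sample 2 the highest, and its difference of 1.496 ± 0.97 had an interval of -0.53 to 3.52. Ccl2 differed by 1.15 ± 0.76, Ccl6 by 1.31 ± 0.78 and Ccl7 by 1.17 ± 0.70, and without sample 2 the median of the list was 0.61. In cartridge 1 the median was -0.12 and 3 of 8 were above 0. CXC chemokines, with the membrane-bound Cx3cl1 counted among them, had a median of 0.26 over 5 members, 0.03 after median centring and -0.06 and -0.03 with TMM and DESeq2 factors. Their median was 0.14 without triple combination sample 4, 0.17 without vehicle sample 3, 0.41 without vehicle sample 2 and 0.43 without triple combination sample a. Cxcl2, a ligand of Cxcr2, read 1231, 2242, 2112 and 2143 against 763 to 3807 (median 1058) and differed by 0.65 ± 0.46. Cxcl1 differed by 0.26 ± 0.32, Cxcl16 by 0.30 ± 0.16 and Cx3cl1 by -0.23 ± 0.17. Complement genes had a median of 0.57 over 7 members, 0.34 after median centring and -0.06 and -0.03 with TMM and DESeq2 factors. One sample at a time moved that median from 0.25 without triple combination sample 2 to 0.99 without vehicle sample 2. It was 0.34 to 0.36 without vehicle sample 1, V1 or V2, and 0.88 and 0.93 without vehicle sample 3 and triple combination sample a. The anaphylatoxin receptor C5ar1 read 327, 426, 548 and 453 against 153 to 702 (median 179) and differed by 0.83 ± 0.45. C3 differed by 0.26 ± 0.18, C4a by 0.72 ± 0.78 and C1qb by 0.65 ± 0.72.

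The remaining 4 functional lists stood at or under the median of all genes. Immediate early and stress genes had a median of 0.05 over 15 members, and -0.18 after median centring. Within that list Btg2, an antiproliferative early gene, read 965, 962, 997 and 1289.7 against 460.4 to 1114 (median 675) and differed by 0.62 ± 0.26, while Egr2, a zinc finger early gene, read 50.8, 59.2, 39.1 and 62.0 against 45.8 to 102 (median 78.5) and differed by -0.44 ± 0.22. The phosphatase Dusp2 differed by 0.84 ± 0.41 and the small GTPase Gem by 1.28 ± 0.77. Hypoxia and angiogenic factors had a median of 0.17 over 5 members (-0.06 after median centring), with Hgf and Vegfa given above, Angpt2 at 0.50 ± 0.51 and Pdgfb at -0.08 ± 0.19. The TGF-beta list had a median of 0.10 over 9 members (-0.13 after median centring); the inhibitor Smad7 differed by -0.25 ± 0.16, the signal transducer Smad2 by 0.16 ± 0.14, and the co-repressors Skil and Ski by 0.12 ± 0.11 and 0.20 ± 0.23. The mitosis and replication list had a median of 0.11 over 4 members (-0.12 after median centring), with Cdc20 at 0.30 ± 0.25, Ccnb2 at 0.15 ± 0.13, Top2a at 0.08 ± 0.20 and Birc5 at -0.02 ± 0.21. Ttk and Ndc80, which also act in mitosis, were not in that list. These 4 medians moved by more than 1.5 times when 1 sample was left out, and 2 of them changed sign, to -0.0057 for the TGF-beta list without triple combination sample 4 and -0.0085 for the mitosis list without sample a.

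Markers of other cell types were present in both groups. Monocyte and macrophage markers comprised 8 tested of 12 measured genes. All 8 were above 0, where 75% of all genes were, and 7 after median centring, where 53.8% of all genes were. Their median was 0.13 after median centring, -0.14 and -0.05 with TMM and DESeq2 factors, and 0.36 on the deposited scale. Without triple combination sample 2 that median was 0.089, without sample 4 it was 0.16 and without vehicle sample 1 it was 0.20. It was 0.57 without triple combination sample b, 0.71 without a, 0.65 without vehicle sample 3 and 0.72 without vehicle sample 2. Their summed level ran from 1157 to 4595 normalized counts in the triple combination and from 852 to 5732 (median 1188) in vehicle. C1qa, a complement subunit made by macrophages, read 152, 189, 821 and 434 against 91.6 to 900.4 (median 119), where triple combination samples 2 and 4 and vehicle samples 2 and 3 were high. Mrc1, the macrophage mannose receptor, read 35.4, 35.5, 244 and 107 against 14.2 to 154 (median 24.2) with the same samples high, and differed by 1.063 ± 0.80. Ly6c1 differed by 0.35 ± 0.38. Endothelial markers had a median of 1.36 over 5 members (1.13 after median centring, 0.71 and 0.87 with TMM and DESeq2 factors). It was 0.97 without triple combination sample 2, 1.62 without vehicle sample 2 and 0.32 in cartridge 1. By sample the list median was 0.13, -0.06, 2.53 and 2.06 in a, b, 2 and 4. Vehicle samples 2 and V2 stood at 1.35 and 1.11. Sele and Selp, the selectins that endothelium displays to leukocytes, differed by 1.41 ± 0.66 and 1.72 ± 0.95, and the phosphatase Ptprb by 1.36 ± 0.69. Selp read 55.5, 21.98, 156 and 188 against 2.66 to 88.3 (median 29.5). Flt1, a VEGF receptor, went the other way, at -0.37 ± 0.28. The summed endothelial level was 174 to 616 in the triple combination and 100.1 to 436 (median 250) in vehicle.

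Fibroblast and matrix genes had a median of -0.01 over 8 members (-0.25 after median centring, 0.014 without vehicle sample 3), with Col3a1, a fibrillar collagen, at 1.27 ± 0.63, Tnc at -0.34 ± 0.20, Pdgfra at -0.31 ± 0.19 and Col4a2 at -0.23 ± 0.16. The 4 epithelial tumour cell genes were all below 0, with a median of -0.18 (-0.41 after median centring, -0.12 without triple combination sample 4). Cdh1, the epithelial cadherin, read 1162, 1047, 889.7 and 841 normalized counts against 783 to 1253 (median 1104); triple combination samples 2 and 4 and vehicle sample 2 were the lowest 3 of the 10, and the difference was -0.13 ± 0.15. Areg differed by -0.26 ± 0.15, F11r by -0.20 ± 0.16 and Met by -0.15 ± 0.19. The summed epithelial level was 1750 to 2330 in the triple combination and 1814 to 2550 (median 2417) in vehicle. No T, NK or B cell marker on the panel passed the background limit: the 4 T and NK genes summed to 11.1 to 88.0 normalized counts in the triple combination and 8.20 to 33.5 in vehicle, and Ms4a1 read 1.69 to 19.6 and 1.00 to 8.58. Of 12 mast cell, basophil and eosinophil markers, only Siglecf and Hdc were tested, with a median of 0.76 (0.53 after median centring), and 2 of 8 dendritic cell markers were tested, with a median of 0.42. Vehicle samples 2 and 3 and triple combination samples 2 and 4 had the highest macrophage list medians, vehicle sample 2 and triple combination samples 2 and 4 were also high in the inflammatory lists, and the part of cell composition in the results was not tested.

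**Figure D4:**
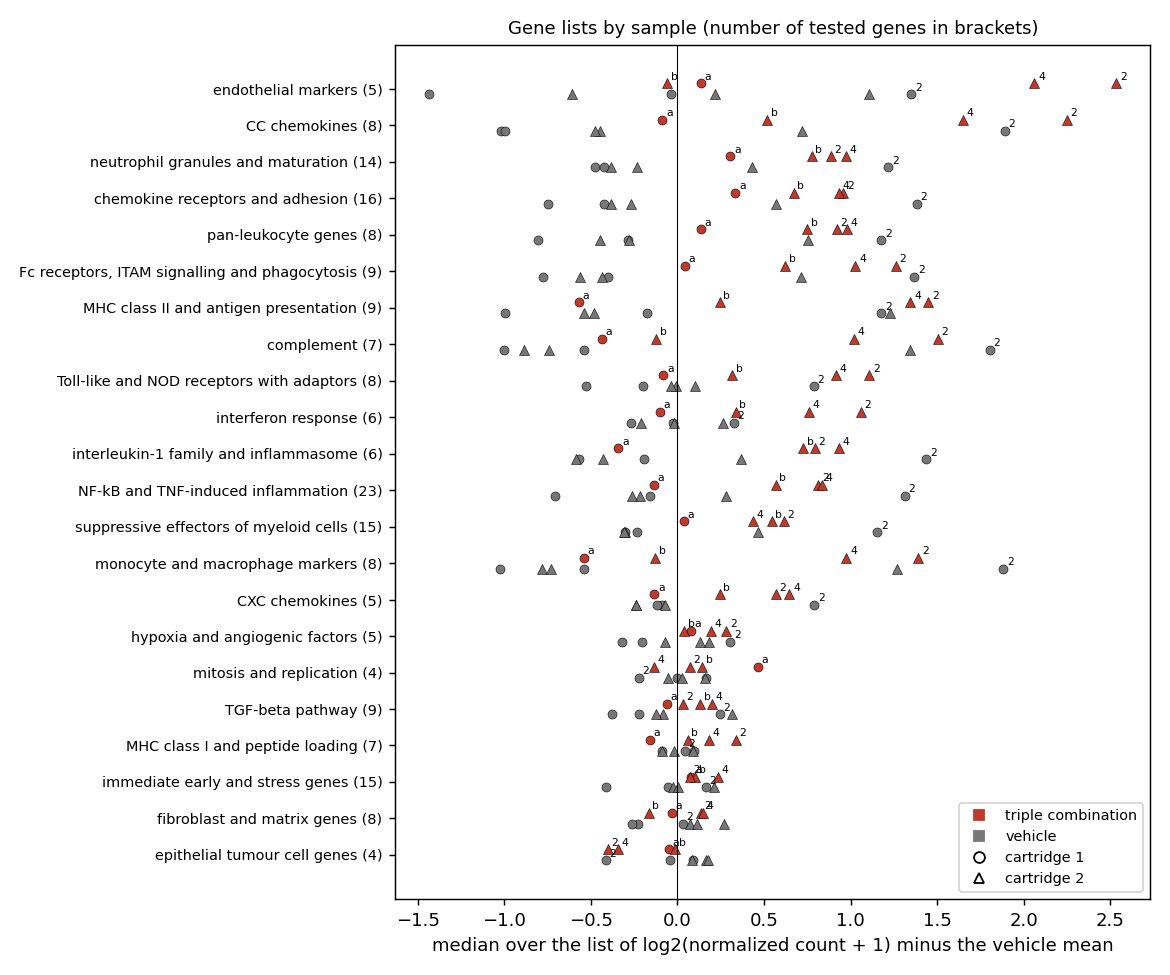
Median over each gene list of log2(normalized count + 1) minus the vehicle mean, for each triple combination (red, n = 4) and vehicle (grey, n = 6) sample; circles are cartridge 1, triangles cartridge 2, and the number of tested genes is in brackets. Vehicle sample 2 lies among or beyond triple combination samples b, 2 and 4 in most leukocyte and inflammatory lists, and sample a is the lowest triple combination sample there. In the neutrophil list sample a stands at 0.31, between b at 0.78 and vehicle samples 1, 4, V1 and V2 at -0.48 to -0.23, with vehicle sample 3 at 0.43.

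Values were also taken within each cartridge. Within cartridge 2, with 3 triple combination samples and 3 vehicle samples, 0 genes passed, 45 had an unadjusted p under 0.05, and the median fold change was 0.39 with 300 of 420 genes above 0. Within cartridge 1, sample a alone stood against 3 vehicle samples, and 210 of 420 genes were above 0. The fit there assumed that sample a varies like the other groups of that cartridge, so its 0 called genes and 7 with an unadjusted p under 0.05 hold no spread of the triple combination. The sign was the same in both cartridges for 198 of 420 genes. With cartridge as a block the median was 0.23, 0 genes passed and 47 had an unadjusted p under 0.05. S100a9 was 0.55 in cartridge 1 and 1.22 in cartridge 2, Ttk 0.66 and 0.63, and Plau -0.32 and -0.92. The sign turned for Cd274, at -0.68 and 1.98, and for H2-Ab1, at -1.12 and 1.29. Neutrophil genes had a median of 0.33 in cartridge 1, 12 of 14 above 0, and 1.07 in cartridge 2, 14 of 14 above 0. Medians in cartridge 1 were below 0 for the NF-kB and TNF list (-0.23), the interleukin-1 list (-0.43), the complement list (-0.53) and the macrophage markers (-0.62), against 0.82, 0.96, 1.05 and 0.78 in cartridge 2.

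The triple combination was also compared directly with the 3 other entinostat groups, in the same fit. That fit has no cartridge term, although cartridge 1 held every sample of the groups given entinostat alone or with anti-PD-1, and cartridge 2 every sample given entinostat with anti-CTLA-4 only. Against entinostat alone 0 genes passed (0%), 53 had an unadjusted p under 0.05 (12.6%), 44 of them lower in the triple combination (10.5%), and the median fold change was -0.24. The lowest adjusted p, 0.0653, belonged to Jak3, a kinase of cytokine receptors that share the common gamma chain, which was chosen after its value was seen. Jak3 averaged 97.6 ± 18.2 normalized counts (SD, n = 4) in the triple combination, 176 ± 9.96 (n = 4) with entinostat alone and 93.9 ± 17.1 (n = 6) in vehicle. Against entinostat plus anti-PD-1 0 genes passed (0%), 33 had an unadjusted p under 0.05 (7.86%), 8 of them higher (1.9%) and 25 lower (5.95%), and the median was -0.06. Against entinostat plus anti-CTLA-4 0 genes passed (0%), 115 had an unadjusted p under 0.05 (27.4%), 111 of them higher in the triple combination (26.4%), and the median was 0.45. In that last comparison 31 genes passed once triple combination sample a was left out, and 35 once vehicle sample 3 was left out with it. Against entinostat alone, 1 gene passed without sample b. With cartridge as a block 0 genes passed in the 3 contrasts, and 44, 10 and 132 had an unadjusted p under 0.05 against entinostat alone, with anti-PD-1 and with anti-CTLA-4. The median fold changes were then -0.42, -0.25 and 0.50, and the adjusted p of Jak3 against entinostat alone was 0.422 by limma.

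For 13 of the 14 neutrophil genes the group mean of the triple combination lay between those of vehicle and entinostat alone, and Ceacam1 was the exception. This order was not counted over all 420 tested genes, so it is not shown to be particular to neutrophil genes. The median fold change of all tested genes was likewise above 0 against vehicle, at 0.30, and below 0 against entinostat alone, at -0.24. S100a9 averaged 5879 ± 4373 normalized counts in vehicle, 5209 ± 4952 with entinostat plus anti-CTLA-4, 9488 ± 1398 with the triple combination, 15777 ± 1974 with entinostat plus anti-PD-1 and 18565 ± 5130.5 with entinostat alone (SD). The means of vehicle, entinostat plus anti-CTLA-4 and the triple combination differed by less than the SD of vehicle, and none of the direct contrasts of S100a9 passed (limma adjusted p = 0.394 against entinostat alone, 0.705 against entinostat plus anti-PD-1 and 0.16 against entinostat plus anti-CTLA-4). Over the 14 neutrophil genes the median direct difference was -0.83 from entinostat alone, -0.67 from entinostat plus anti-PD-1 and 1.14 from entinostat plus anti-CTLA-4, and with cartridge as a block -0.92, -0.73 and 1.14. Plau was placed otherwise. It averaged 340.1 ± 66.5 in the triple combination, 355 ± 16.6 with entinostat alone and 548 ± 136 with entinostat plus anti-CTLA-4, with a limma adjusted p of 0.148 in the contrast with entinostat plus anti-CTLA-4.

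**Figure D5:**
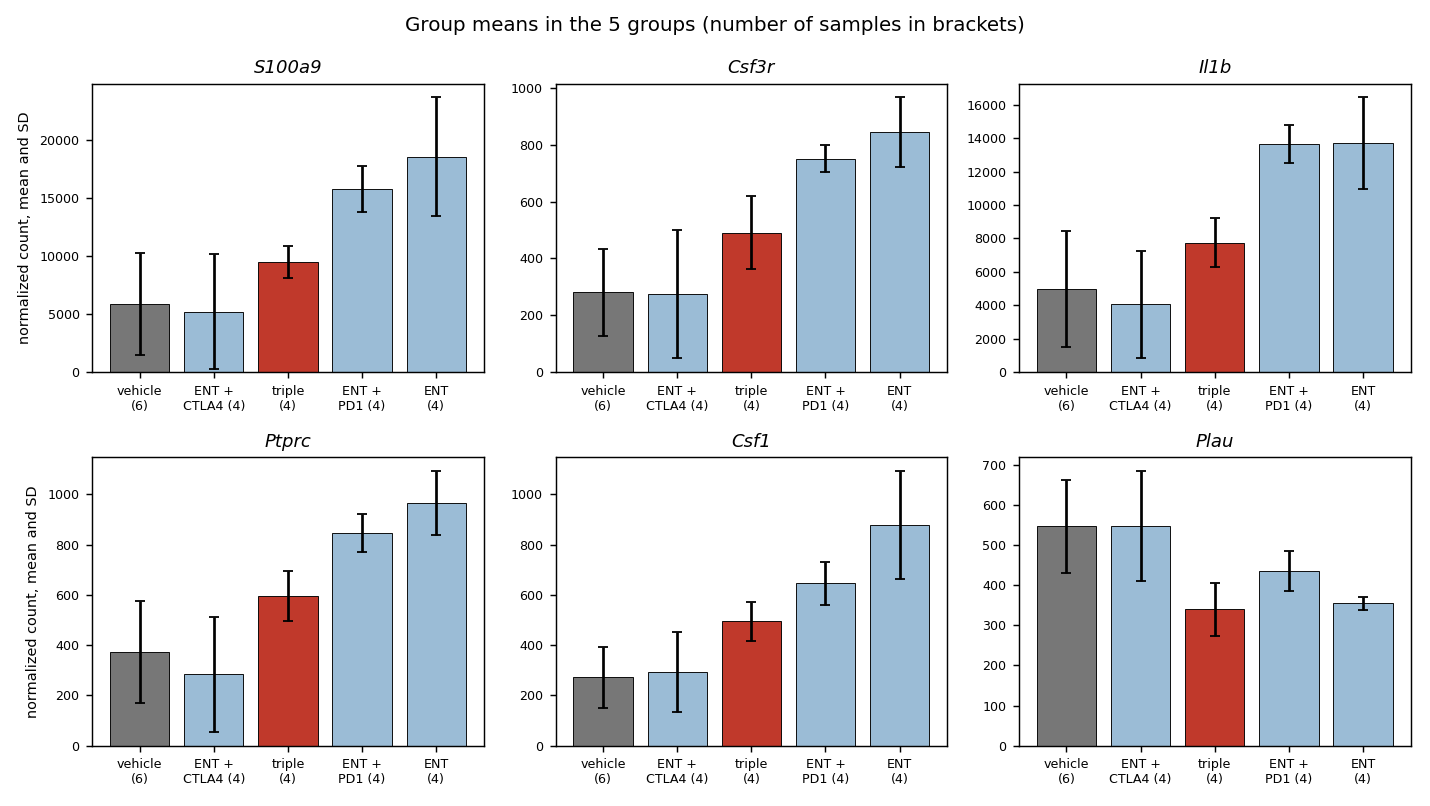
Mean normalized counts in the 5 groups with SD error bars for 6 genes chosen after their values were seen; the axis starts at 0, n = 6 for vehicle and 4 elsewhere, ENT is entinostat, and the triple combination is red. For S100a9, Csf3r, Il1b, Ptprc and Csf1 the triple combination mean lies between vehicle and entinostat alone, and for Plau it is the lowest of the 5.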

How the data were processed

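The series holds 22 samples, and the comparison used 10 of them. The authors deposited 1 table of gene signal: NanoString barcode counts scaled by 1 factor per sample. Per the file headers its rows are 655 endogenous and 20 housekeeping genes with 8 negative and 6 positive control probes, and the software that normalized it is not given in the sources used here. The submitters' processing notes name limma with no version. Values under 1 stand at 1, and control rows are unscaled counts. Barcode counts were recovered by dividing gene values by the step of each sample; 100% of the values checked (above 1 and up to 200 normalized counts) were whole within 0.1. In 9 of the 22 columns the column as a whole, control rows and values at 1 included, did not pass as whole multiples, and the count tests rest on the gene rows. Of the 675 gene names, 665 matched a symbol of the RefSeq table.

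Testing was limited to genes with 1 or more group means of log2 values over a background limit of 29.3 normalized counts, set 2 SD above the log2 mean of the negative control probes. The test was limma 3.58.1 in R 4.3.3 (lmFit and eBayes) on log2(normalized count + 1), with 5 group means over all 22 samples, two-sided, with Benjamini-Hochberg adjustment over 420 genes and a threshold of 0.05. Fold changes are on that scale, which understates changes of low genes, and are given with their SE. edgeR 4.0.16 and DESeq2 1.42.0 were run on the recovered counts as alternatives. Fits were tested on simulated data. Two-sided exact permutation tests compared sample-level measures. No 2 samples agreed within sampling noise.

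Genes were named by rule: up to 10 genes of smallest p in each direction, 14 genes of G-MDSC biology, up to 4 members with the smallest p of each list, and genes whose groups do not overlap. Some genes under the rule are not reported here. The members and lists were chosen with earlier results of these data known. Alternatives were the pseudocount, the filter, the scaling, the tool, sample weights, the cartridge, each sample left out and a block on replicate number. Sequences are RefSeq, GRCm38.p6. The low depth of 1 sample limits low genes there, and counting error is the only error that depth shows.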

Additional observations from a re-analysis of the deposited data

Results flagged for a closer look

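Of 222 groups of values checked for a sample far from the others of its group, 17 gave such a sample; chance gives about 1 in 20 groups, and the genes share their samples. Values are normalized counts, with the range of the other samples of the group.

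Triple combination sample a was low for Tnf at 365 (others 977 to 1178), Vav1 at 141 (others 267 to 299.7), Il1rn at 840.2 (others 1652 to 1751), Cxcl2 at 1231 (others 2112 to 2242) and Ptprc at 446 (others 635 to 657). Sample 2 was low for Eef1a1 at 14538 (others 20258 to 21305) and Peli1 at 284 (others 308 to 313), sample b low for Pdgfb at 94.7 (others 174 to 176), and sample 4 high for Btg2 at 1289.7 (others 962 to 997) and Col4a2 at 492 (others 313 to 336).

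Vehicle sample 2 was high or low for Cxcr2 at 409 (others 126 to 175), Cxcl16 at 221 (others 128 to 152), Cxcl2 at 3807 (others 763 to 1181), Pdgfra at 207 (others 308 to 362), Cdh1 at 783 (others 1065 to 1253) and Met at 98.7 (others 151 to 176): higher for the receptor and chemokine genes Cxcr2, Cxcl16 and Cxcl2, and lower for the stromal gene Pdgfra and the epithelial genes Cdh1 and Met. Vehicle sample 1 was low for Sp4 at 20.4 (others 31.8 to 41.1).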

How the results depend on the processing

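The comparison with vehicle gave 0 called genes in 27 of 29 alternatives, of which that within cartridge 1 has a single triple combination sample. Sample weights called 126 (115 higher, 11 lower). Of the 105 named and tested genes, 47 kept their sign in every alternative and 25 turned in at least 1 other than cartridge 1 alone; of all 420 tested genes, 115 kept it in every alternative and 208 turned outside cartridge 1. The named genes were picked partly for small p, so their share is not that of the panel. Background subtraction and leaving out triple combination sample 2 with vehicle sample 2, and the repeats of the direct contrasts, were added after seeing the data.

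The replicate block used the 16 columns with a number of their own and called 6 genes, all higher; the same columns without the number term called 36 (35 higher, 1 lower). Only numbers 2 and 4 are shared by both groups, and the deviations of same-numbered samples correlated at 0.391 and -0.342, so the samples share a number and no pairing was taken from it.

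Leaving out 1 sample at a time gave 0 to 0 called genes against vehicle, 0 to 1 against entinostat alone, 0 to 0 against entinostat plus anti-PD-1 and 0 to 31 against entinostat plus anti-CTLA-4 (31 without triple combination sample a; 35 with vehicle sample 3 left out too). The median fold change of all genes ran from 0.16 to 0.42 and the non-overlap count from 6 to 29, at 29 without vehicle sample 2, 22 without triple combination sample a and 10 without b. Signs turned among these repeats for Arg1 (-0.18 to 0.28), Tgfb1 (-0.00571 to 0.23), Il1rl1 (-0.099 to 0.94), Pdgfb (-0.16 to 0.14), Top2a (-0.078 to 0.17) and Birc5 (-0.21 to 0.11).

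The median fold change of all genes was -0.071 after quantile normalization, -0.064 with TMM factors, -0.036 with DESeq2 and -0.000271 in cartridge 1. The non-overlap count was 3 after median centring (Ndc80 higher, Adamts2 and Edn lower), 3 after background subtraction (Ttk higher, Hist2h2aa1 and Adamts2 lower), 29 with triple sample a and vehicle sample 3 both left out, and 35 with sample 2 of each group left out; Adamts2 and Edn were named after their values were seen.

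Log2 fold changes of named genes whose sign turned were as follows, and the cause was not tested. With quantile normalization they were Sp4 -0.00687, Arg1 -0.53, Stat3 -0.14, Tgfb1 -0.15, Vegfa -0.12, Peli1 -0.020, Cd80 -0.00357, Il1rl1 -0.29, Angpt2 -0.15, Cdc20 -0.099, Ccnb2 -0.13, Top2a -0.12, Smad2 -0.18, Skil -0.11 and Ski -0.097. With TMM factors they were Arg1 -0.35, Stat3 -0.23, Tgfb1 -0.20, Vegfa -0.12, Cxcl16 -0.032, Cxcl1 -0.063, C3 -0.059, Cdc20 -0.071, Ccnb2 -0.13, Top2a -0.18, Smad2 -0.17, Skil -0.17, Ski -0.12, Ly6c1 -0.10 and C1qa -0.17. With DESeq2 they were Arg1 -0.32, Stat3 -0.19, Tgfb1 -0.15, Vegfa -0.084, Cxcl16 -0.010, Cxcl1 -0.027, C3 -0.031, Cdc20 -0.056, Ccnb2 -0.10, Top2a -0.16, Smad2 -0.15, Skil -0.13, Ski -0.056, Ly6c1 -0.053 and C1qa -0.050. Median centring gave Arg1 -0.19, Stat3 -0.19, Tgfb1 -0.13, Vegfa -0.065, Ccnb2 -0.085, Top2a -0.16, Smad2 -0.074, Skil -0.12 and Ski -0.029. In cartridge 1 alone, where sample a is the only triple combination sample, they were Crabp2 -0.13, Nr2f6 0.046, Cd274 -0.68, Cybb -0.76, Tgfb1 -0.23, Vegfa -0.095, Tnfaip6 -0.25, Tnf -0.40, Fcgr4 -0.13, Syk -0.011, Vav1 -0.12, Ifngr1 -0.16, Irf1 -0.20, Tap1 -0.53, Cd80 -0.031, Ctss -0.42, H2-Ab1 -1.12, Nod2 -0.16, Tlr2 -0.23, Il1rn -0.31, Nlrp3 -0.54, Il1rl1 -1.07, Cxcl16 -0.11, Cxcl2 -0.26, Cxcl1 -0.73, Ccl6 -0.10, Ccl7 -0.52, Ccl2 -0.46, C4a -0.31, C1qb -0.62, Pdgfb 0.20, Cdc20 -0.15, Birc5 0.56, Dusp2 -0.12, Smad7 0.11, Smad2 -0.036, Was -0.12, Mrc1 -0.065, C1qa -0.61, Tnc 0.44, Areg 0.011, F11r 0.13, Cdh1 0.27 and Met 0.054. In cartridge 2 alone they were Arg1 -0.11 and Top2a -0.10, and with the cartridge as a block Arg1 -0.057 and Birc5 0.025. The replicate block gave Arg1 -0.28, Ptgs2 -0.30, Stat3 -0.060, Pdgfb 0.15, Top2a -0.072, Flt1 0.38 and Col4a2 0.10. Lane factors in edgeR gave Arg1 -0.20 and Birc5 0.087, sample weights Birc5 0.11, Smad2 -0.00212 and Ly6c1 -0.15, and background subtraction Arg1 -0.17 and Il1rl1 -0.14. Without vehicle samples V1 and V2 they were Arg1 -0.024, Stat3 -0.020, Tgfb1 -0.029 and C1qa -0.014, with sample 2 of each group left out Il1rl1 -0.043 and Birc5 0.066, and with triple sample a and vehicle sample 3 both left out Top2a -0.043.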
